A study of Mus musculus with 4 samples.

Results

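The genes described here encode the proteasome and the translation initiation factors, and were chosen by name. They are the mouse protein-coding genes of the RefSeq table whose symbols begin with Psma to Psmg and a digit (Psm genes) or with Eif and a digit (Eif genes). Of 21900 protein-coding genes, 107 met the rule, 51 Psm and 56 Eif genes. Eif2s3y lies on chromosome Y, on which no list had a loop, so 106 of the 21631 genes on the other chromosomes were examined, 51 Psm and 55 Eif genes. The names also take in genes whose products are not subunits or initiation factors proper, such as Psmc3ip, the Eif2ak kinases and the Eif4ebp repressors.

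The proteasome is the barrel-shaped protease that degrades ubiquitin-tagged proteins. Its core holds alpha (Psma) and beta (Psmb) subunits, and its regulatory particle holds ATPases (Psmc) and non-ATPase subunits (Psmd). Psme genes encode other activators, Psmf1 an inhibitor and Psmg genes assembly chaperones. Initiation factors bring the ribosome, the initiator tRNA and the mRNA together, and are regulated by the Eif2ak kinases and by Eif4ebp proteins that hold back the cap-binding factor Eif4e. Estrogen and progesterone both act on growth and protein synthesis in the uterus.

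Chromatin loops had been mapped by Hi-C, a ligation and sequencing assay of contacts between distant stretches of DNA, in whole uterus of C57BL/6J females older than 10 weeks. All mice had been ovariectomised and rested for 10 to 14 days, and tissue was frozen 1 h after an injection. There was 1 library from wild-type mice given 1 mg of progesterone subcutaneously, dissolved in 100 ul of sesame oil (replicate 2). There was 1 library from Ex3aERKO mice, which lack estrogen receptor alpha (ERα), given 100 ul of saline into the abdominal cavity. The reference was wild-type mice given the same saline, with 2 libraries (vehicle replicates 2 and 3). Carrier and route therefore also differ between progesterone and vehicle. The sources used here do not say whether tissue of several animals was pooled. Estradiol samples were not analysed here.

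Each list gives the positions of 2 anchors per loop, in bins of 5, 10 or 25 kb, with no contact count. Depth and loop strength are therefore unknown, and an unlisted loop is one that was not called. The lists held 11752 loops after progesterone, 21829 in the knockout, and 16387 and 9385 in vehicle replicates 2 and 3. The vehicle libraries thus stood apart in list length, with the progesterone list between them and the knockout list above both. With 1 library each for progesterone and the knockout, no test between conditions was made. Shares carry exact (Clopper-Pearson) 95% intervals that cover counting error only, and neighbouring genes and loops are not independent. In whole tissue, fewer cells with a loop and a weaker loop in each cell cannot be told apart. Neither the tissue label nor the ERα deletion could be checked from positions of loops.

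A gene counted as at an anchor if either end of it fell within the anchor. Of the 51 Psm genes, 22 were at an anchor in the progesterone list (43.1%, interval 29.4% to 57.8%) and 34 in the knockout list (66.7%, 52.1% to 79.2%). In the vehicle lists the Psm count was 24 in replicate 2 (47.1%, 32.9% to 61.5%) and 14 in replicate 3 (27.5%, 15.9% to 41.7%). Of all protein-coding genes, 27.8% were at an anchor after progesterone, 43.6% in the knockout, 34.3% in vehicle replicate 2 and 23.9% in vehicle replicate 3. The progesterone value for Psm genes lay between the vehicle replicates, and the knockout value lay above both, as did the value for all genes.

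The Eif genes had similar shares. Of 55, 21 were at an anchor after progesterone (38.2%, 25.4% to 52.3%) and 36 in the knockout (65.5%, 51.4% to 77.8%). In the vehicle lists the Eif count was 24 in replicate 2 (43.6%, 30.3% to 57.7%) and 12 in replicate 3 (21.8%, 11.8% to 35.0%). In each list the Psm share was the higher, and each share lay inside the interval of the other family's share. The difference between the families was not tested.

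Psm and Eif genes had a median of 5 protein-coding genes within 100 kb, against 4 for all genes. Their counts were therefore also set beside the count that other protein-coding genes of the same density would give. For this, genes were sorted into 5 classes by how many neighbours lay within 100 kb. For Psm genes that count was 13.8 after progesterone, 22.02 in the knockout, 17.0 in vehicle replicate 2 and 11.8 in vehicle replicate 3. The observed Psm counts were 1.6 times this value after progesterone, 1.54 times in the knockout, 1.41 times in vehicle replicate 2 and 1.18 times in vehicle replicate 3. For Eif genes it was 14.8 after progesterone, 23.8 in the knockout, 18.5 in vehicle replicate 2 and 12.7 in vehicle replicate 3. The observed Eif counts were 1.42 times this value after progesterone, 1.51 times in the knockout, 1.30 times in vehicle replicate 2 and 0.94 times in vehicle replicate 3. Members were thus above genes of like density in 3 lists, while in vehicle replicate 3, the shortest list, the 2 families together had 26 members at anchors against 24.6. With gene ends up to 10 kb from an anchor also counted, the Eif excess after progesterone was gone, with 25 genes against 25.1, and in vehicle replicate 3 the Eif count was below its background, 18 against 22.6. With 10 kb anchors alone, Psm genes in vehicle replicate 2 (5 against 6.04) and Eif genes after progesterone (5 against 5.51) were below it too. Counting any overlap of gene and anchor, Psm genes in vehicle replicate 3 were below it, 15 against 16.1.

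**Figure D1:**
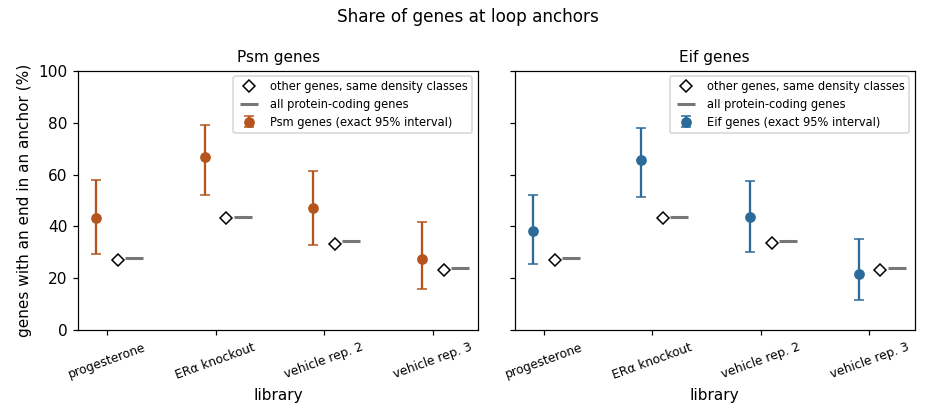
Percent of genes with a start or end in a loop anchor (y axis) in each library (x axis), for Psm genes (left) and Eif genes (right). Circles with bars are the members with exact 95% intervals, diamonds the share of other genes in the same density classes, and grey dashes all protein-coding genes; the members stand above both in the progesterone, knockout and vehicle replicate 2 lists and close to them in vehicle replicate 3.

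Over the 4 libraries, 79 of 106 members (74.5%) were at an anchor at least once, against 53.6% of all genes and a count of 56.5 for genes of like density. This was 38 of 51 Psm genes and 41 of 55 Eif genes. In all 4 lists there were 10 Psm genes (19.6%) and 8 Eif genes (14.5%), against 14.0% of all genes. In the knockout list and no other there were 8 Psm and 10 Eif genes, 17.0% of members, against 10.0% of all genes and a density-standardised count of 11.03. In the progesterone list and no other there was 1 member, Psmd3, against 1.64% of all genes, and its 90 kb loop was matched in all 4 lists. In percentage points the margin of each family over all genes was larger among genes called at least once than among genes called in every list. The base shares differ, 53.6% and 14.0% of all genes, so the margins were not compared in proportion. No density-standardised count was made for genes in all 4 lists.

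**Figure D2:**
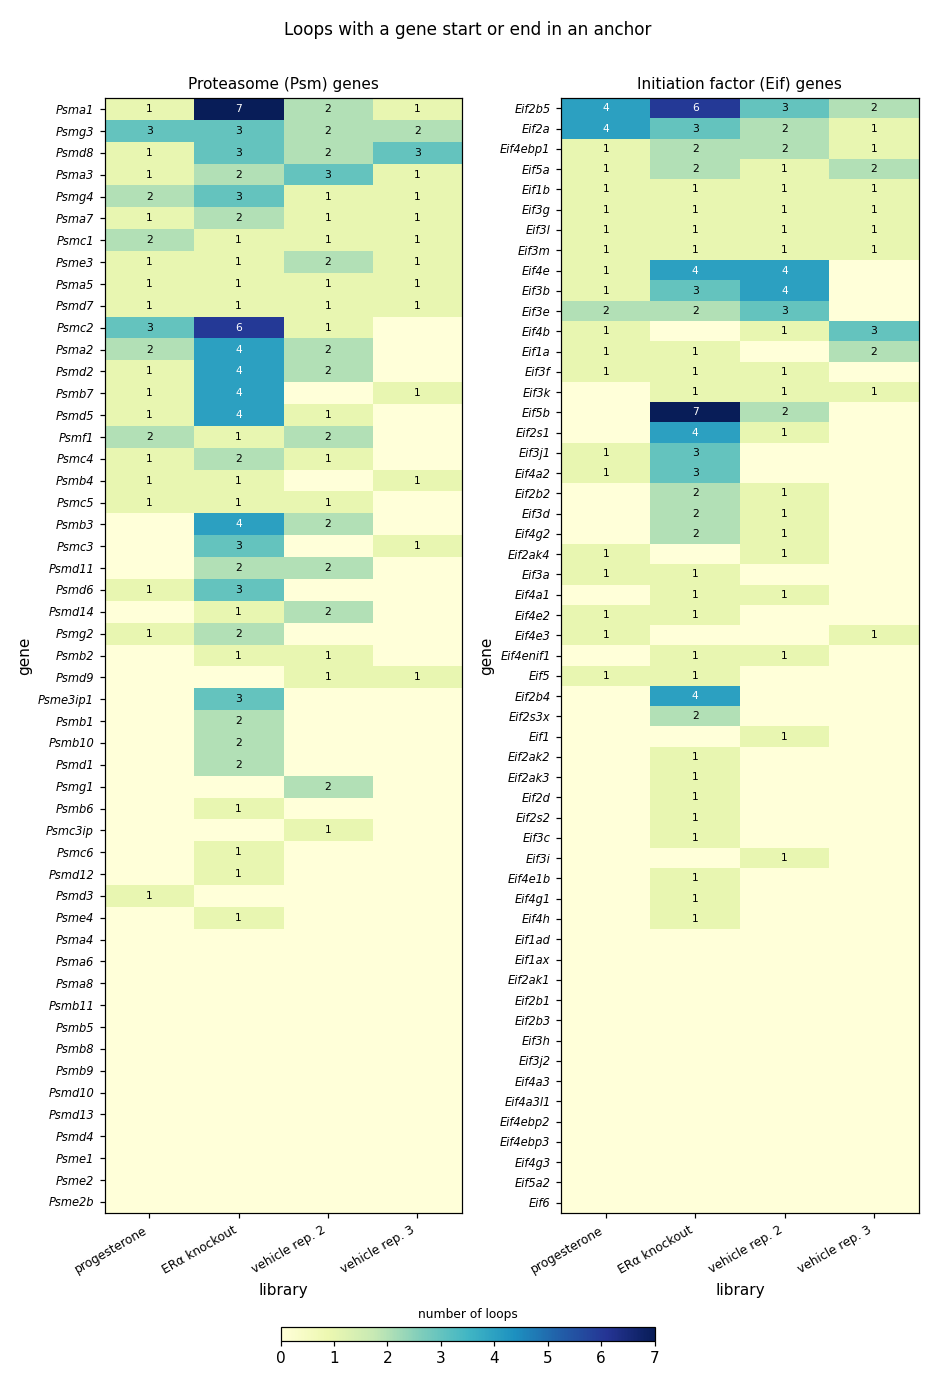
Number of loops (number in the cell, and colour) with a start or end of each Psm gene (left) or Eif gene (right) in an anchor, by library (x axis), with genes ordered by the number of libraries. An empty cell means no loop; 10 Psm and 8 Eif genes have loops in all 4 columns, and 13 Psm and 14 Eif genes in none.

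Among the core subunits, alpha genes outnumbered beta genes at anchors in the wild-type lists and not in the knockout list, which was not tested. Of 8 alpha genes, 5 were at an anchor after progesterone, 5 in the knockout, 5 in vehicle replicate 2 and 4 in vehicle replicate 3. Psma1, Psma3, Psma5 and Psma7 were at an anchor in all 4 lists. Of 8 beta genes outside the immunoproteasome, 2 were at an anchor after progesterone, 6 in the knockout, and 2 in each vehicle list, and none in all 4. The beta counts depended on anchor edges. An anchor lay 0.324 kb from Psmb6 in each wild-type list, 3.43 kb from Psmb3 after progesterone and 1.955 kb from Psmb7 in vehicle replicate 2. No further alpha gene had an end within 10 kb of an anchor in those lists. Of all genes, 27.8% were at an anchor after progesterone, 43.6% in the knockout, and 34.3% and 23.9% in vehicle replicates 2 and 3. Of the immunoproteasome genes, whose products replace catalytic beta subunits in immune and interferon-treated cells, Psmb8 and Psmb9 were at no anchor and Psmb10 was at 2 loops in the knockout list only. Its 225 kb loop had a matching loop in every list, with the gene's ends outside its anchors in the others.

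Psma3 carried a loop of the same 5 kb bins in all 4 lists. It joined chr12:70965001-70970000, which holds an end of the gene as RefSeq gives it but not its listed start site, to chr12:71015001-71020000, 50 kb away, where Arid4a, a chromatin regulator, has an end. Psma7 had a 65 kb loop to Taf4, a subunit of the general transcription factor TFIID, in the progesterone, knockout and vehicle replicate 2 lists. In vehicle replicate 3 its loop ran 210 kb the other way, to Rps21 and Cables2, a loop also in the knockout list. Psma1 had 1 loop after progesterone, 7 in the knockout, 2 in vehicle replicate 2 and 1 in vehicle replicate 3. The loops of Psma5 ended in different places in different lists, and the same 275 kb loop to Tmem167b and Taf13 was listed after progesterone and in vehicle replicate 2. Presence in all 4 lists therefore meant the same loop for Psma3 and not for Psma5.

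Of the 7 Psmc genes, Psmc1 was in all 4 lists, with a 1375 kb loop in 25 kb bins to Ptpn21 and Zc3h14 in the progesterone list and both vehicle lists. The knockout list placed Psmc1 at a 230 kb loop to Efcab11 and Tdp1, also listed after progesterone. Loops were matched between lists when both anchors overlapped after 10 kb was added to those of 1 list. By that match the 1375 kb loop was called in all 4 lists and the 230 kb loop in the progesterone, knockout and vehicle replicate 3 lists, although the gene's ends were not in those anchors in each. Of the 14 Psmd genes, 6 were at an anchor after progesterone, 9 in the knockout, 7 in vehicle replicate 2 and 3 in vehicle replicate 3. Psmd7 had the same 1975 kb loop in all 4 lists, from chr8:107575001-107600000 to chr8:109550001-109575000, the bin that holds ends of Dhx38, a splicing helicase, and Txnl4b. Psmd8 had 1 loop after progesterone, 3 in the knockout, 2 in vehicle replicate 2 and 3 in vehicle replicate 3.

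Among the activators, Psme3, which encodes the nuclear activator PA28γ, had a 75 kb loop in the same 5 kb bins in all 4 lists, with no protein-coding gene end in the other anchor. Psme1, Psme2 and Psme2b were at no anchor. Among the assembly chaperones, Psmg4 had an 85 kb loop to the tubulin gene Tubb2a after progesterone, in the knockout and in vehicle replicate 2, and a 115 kb loop in vehicle replicate 3. Psmg3 was also in all 4 lists and is described with Eif3b.

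Of the initiation factors, the 14 Eif3 genes gave the most members at anchors, and were also the largest group. There were 8 after progesterone, 11 in the knockout, 9 in vehicle replicate 2 and 4 in vehicle replicate 3. By share they did not lead in every list, with Eif2 genes at 5 of 5 in the knockout and Eif1 genes at 2 of 5 in vehicle replicate 3. Of all genes, 27.8% were at an anchor after progesterone, 43.6% in the knockout, and 34.3% and 23.9% in vehicle replicates 2 and 3. The Eif3 genes encode the scaffold that binds the small ribosomal subunit. Eif3g had a 250 kb loop to Cdc37, which encodes a co-chaperone of kinases, in all 4 lists. Eif3m had a 100 kb loop to Ccdc73 in the progesterone, knockout and vehicle replicate 2 lists, and a 220 kb loop in vehicle replicate 3. Eif3l had a 55 kb loop in the same 3 lists and a 45 kb loop to Micall1 in vehicle replicate 3.

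Eif1b, a close relative of the start-codon selection factor Eif1, had a 65 kb loop after progesterone, in the knockout and in vehicle replicate 2, listed as 60 kb in 10 kb bins in vehicle replicate 3, with no gene end at its other anchor. Eif2a, which is not the alpha subunit of eIF2 (that is Eif2s1), had 4 loops after progesterone, 3 in the knockout, 2 in vehicle replicate 2 and 1 in vehicle replicate 3. Its 50 kb loop to the selenoprotein gene Selenot was listed in the first 3 of these, and vehicle replicate 3 had the neighbouring bin at 45 kb. Of the 5 genes named Eif2s, Eif2a or Eif2d, all were at an anchor in the knockout list, 1 after progesterone, 2 in vehicle replicate 2 and 1 in vehicle replicate 3. The knockout list was the longest, with 43.6% of all genes at an anchor against 27.8% after progesterone. The knockout loop of Eif2d was matched in vehicle replicate 2. An anchor lay within 2.66 kb of an end of Eif2d in each other list. The difference between lists was not tested. Eif4ebp1 and Eif5a were also in all 4 lists. The 6 loops of Eif5a had 6 different lengths, from 40 to 500 kb, so no loop of it recurred in the same bins.

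There were 27 members with neither end in an anchor of any list, 13 Psm genes (25.5%) and 14 Eif genes (25.5%), against 46.4% of all genes. The Psm genes were Psma4, Psma6 and Psma8; Psmb5 and the thymus-specific Psmb11; Psmb8 and Psmb9; Psme1, Psme2 and Psme2b; and Psmd4, Psmd10 and Psmd13. The Eif genes were Eif1ad, Eif1ax, Eif2ak1, Eif2b1, Eif2b3, Eif3h, Eif3j2, Eif4a3, Eif4a3l1, Eif4ebp2, Eif4ebp3, Eif4g3, Eif5a2 and Eif6. Several of these are neighbours. Psmb5 and Psmb11 lie 7.32 kb apart, Psme1 and Psme2 5.91 kb apart, and Psmb8 and Psmb9 10.9 kb apart. The Psm genes at no anchor had a median of 10 protein-coding genes within 100 kb, against 5 over all Psm genes, and a median length of 5.30 kb against 11.6 kb. The Eif genes at no anchor had 5.5 neighbours against 5 over all Eif genes. Over all protein-coding genes those at no anchor had 5 neighbours against 4, and a median length of 11.1 kb against 17.3 kb. None of these differences was tested. An anchor came within 10 kb of an end of 4 of the 13 Psm and 6 of the 14 Eif genes. By that distance the nearest were Eif3j2 at 0.418 kb in the knockout and Psmd13 at 1.36 kb in every list. In some list an anchor lay inside 1 of these Psm genes, Psma6, and inside 3 of these Eif genes, Eif2b3, Eif3h and Eif4g3. A listed start site of Psma6 lay in an anchor in every list, at 2 loops in the knockout and 1 in each other list.

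In each list the share of loops that led to another gene was higher at members than at genes in general, and in 3 lists it was also higher than at genes of like density and bin size. Neither difference was tested. In the progesterone list 41 of 58 contacts of a member with a loop had a protein-coding gene end in the other anchor (70.7%, 57.3% to 81.9%), and in the knockout list 113 of 151 did (74.8%, 67.1% to 81.5%). In the vehicle lists these were 53 of 74 in replicate 2 (71.6%, 60.0% to 81.5%) and 17 of 34 in replicate 3 (50%, 32.4% to 67.6%). Over contacts of all genes the shares were 46.5% after progesterone, 55.6% in the knockout, 46.1% in vehicle replicate 2 and 45.0% in vehicle replicate 3. Members had wider bins and more neighbouring genes than genes in general. In the progesterone list 41.1% of member loops were in 25 kb bins, against 24.9% of loops at any gene. Standardised to the members' density classes and bin sizes, other genes gave 53.8% after progesterone, 61.2% in the knockout, 52.5% in vehicle replicate 2 and 53.0% in vehicle replicate 3, a comparison chosen after the first values were seen. The members' shares stayed above these in 3 lists and were below in vehicle replicate 3, where Eif genes had a partner in 6 of 17 contacts (35.3%, 14.2% to 61.7%).

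Most pairs of a member and a partner were seen in 1 library, as for genes in general. There were 33 Psm genes with 119 pairs of a gene and a partner, of which 78 were seen in 1 library and 3 in all 4. There were 35 Eif genes with 112 pairs, 79 in 1 library and 2 in all 4. In 1 library were thus 65.5% of Psm and 70.5% of Eif pairs, against 67.6% over all genes. In all 4 were 2.52% of Psm and 1.79% of Eif pairs, against 3.56%. The Psm pairs in all 4 lists were Psma3 with Arid4a, and Psmd7 with Dhx38 and with Txnl4b. The Eif pairs were Eif3g with Cdc37, and Eif2b5 with the readthrough gene Eef1akmt4-ece2. The last pair was not the same loop in every list. It rested on loops of 100 to 120 kb after progesterone, in the knockout and in vehicle replicate 2. In vehicle replicate 3 it was a 150 kb loop to chr16:20645001-20650000, at the other end of the readthrough gene. Another protein-coding gene end shared the member's own anchor in 41.4% of contacts after progesterone, 47.0% in the knockout, 40.5% in vehicle replicate 2 and 38.2% in vehicle replicate 3. In those the loop cannot be assigned to the member rather than to its neighbour.

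The share of loops found in all 4 lists was lower at members than at genes in general, a difference that was not tested. Of the 56 loops at members after progesterone, 28.6% were in all 4 lists, of 150 in the knockout 8.0%, of 71 in vehicle replicate 2 16.9% and of 34 in vehicle replicate 3 50%. For loops at any gene the shares were 49.2% after progesterone, 23.0% in the knockout, 32.7% in vehicle replicate 2 and 65.4% in vehicle replicate 3. Counted per contact and standardised to density class and bin size, other genes gave 42.7% after progesterone, 18.2% in the knockout, 27.4% in vehicle replicate 2 and 58.8% in vehicle replicate 3. The members' per-contact shares were below these in each list, at 29.3% after progesterone, 8.61% in the knockout, 17.6% in vehicle replicate 2 and 50% in vehicle replicate 3.

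**Figure D3:**
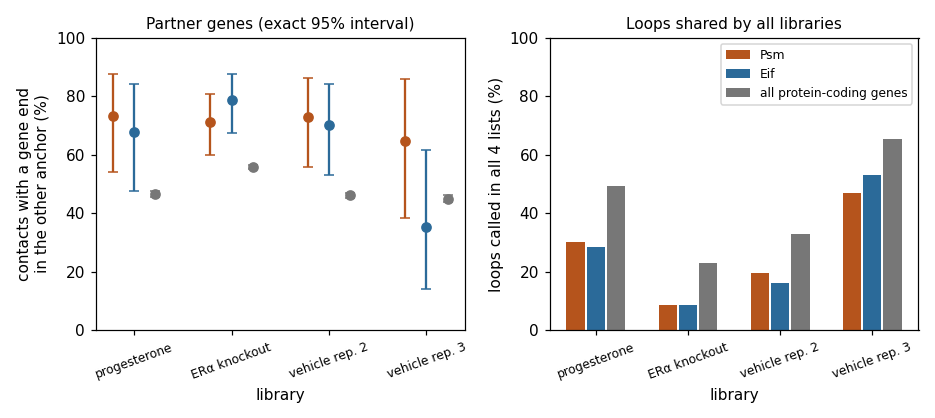
Left, percent of contacts with a protein-coding gene end in the other anchor (y axis, bars are exact 95% intervals); right, percent of loops called in all 4 lists (y axis, bars start at 0), by library (x axis) for Psm, Eif and all protein-coding genes. The member shares lie above the all-gene shares on the left except for Eif genes in vehicle replicate 3, and below them in every library on the right.

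Neither family had the longer loops in every list. The median over Psm loops was 240 kb after progesterone, 152.5 kb in the knockout, 167.5 kb in vehicle replicate 2 and 130 kb in vehicle replicate 3. The Eif medians were 152.5 kb after progesterone, 115 kb in the knockout, 120 kb in vehicle replicate 2 and 220 kb in vehicle replicate 3. Loops at any gene had medians of 170 kb after progesterone, 140 kb in the knockout, 160 kb in vehicle replicate 2 and 175 kb in vehicle replicate 3. The order of the families in length differed between vehicle replicates 2 and 3 and depended on bin size. With 10 kb anchors alone, Psm loops had the lower median after progesterone, 160 kb against 250 kb for Eif loops, and the higher one in both vehicle lists (190 against 120 kb in replicate 2, 110 against 60 kb in replicate 3). Giving each gene its own median first brought the progesterone values to 152.5 kb for Psm and 150 kb for Eif genes. Loops over 2 Mb at members numbered 2 after progesterone, 8 in the knockout, 1 in vehicle replicate 2 and 0 in vehicle replicate 3. These were 3.57% of member loops after progesterone, 5.33% in the knockout, 1.41% in vehicle replicate 2 and 0% in vehicle replicate 3. Of loops at any gene 1.20% were that long after progesterone, 1.98% in the knockout, 1.21% in vehicle replicate 2 and 0.768% in vehicle replicate 3. The longest were 46150 kb at Psmd6 in the knockout, 20050 kb at Psmc2 after progesterone, and 7800 kb at Eif5b and 6350 kb at Eif2b5 in the knockout. Each of these was in 25 kb bins and in 1 list.

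**Figure D4:**
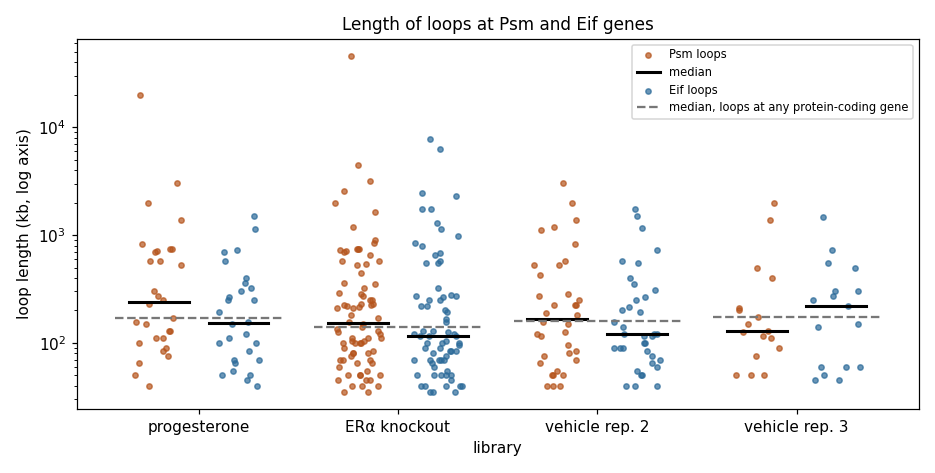
Length of each loop at a Psm or Eif gene (y axis, kb, log axis) by library (x axis), with short black bars at the family medians and dashed grey lines at the median over loops at any protein-coding gene. The medians lie between 115 and 240 kb, and points above 2 Mb are most numerous in the knockout.

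Members lay within 1 Mb of each other in 22 pairs, of which 3 were joined by a loop in some list (13.6%). Over all protein-coding genes, 2.61% of 386519 such pairs were joined, and the distances within the 1 Mb were not matched. On chromosome 16, Eif2b5 encodes the catalytic epsilon subunit of eIF2B, the exchange factor that recharges eIF2 with GTP, and Psmd2 encodes a scaffold subunit of the proteasome's regulatory particle. A 155 kb loop joined chr16:20495001-20500000, which holds the start of Eif2b5, to chr16:20650001-20655000, which holds the start of Psmd2. It was listed in the same 5 kb bins after progesterone, in the knockout and in vehicle replicate 2. Vehicle replicate 3 listed the neighbouring bin chr16:20645001-20650000, and the start of Psmd2 lay 1.12 kb outside it. Eif4g1, the cap-complex scaffold gene 9.31 kb from Psmd2, had 1 loop of 45 kb, in the knockout. Eif2b5 itself had 4 loops after progesterone, 6 in the knockout, 3 in vehicle replicate 2 and 2 in vehicle replicate 3, and a loop of 265 kb (270 kb in 10 kb bins in vehicle replicate 3) was in every list.

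**Figure D5:**
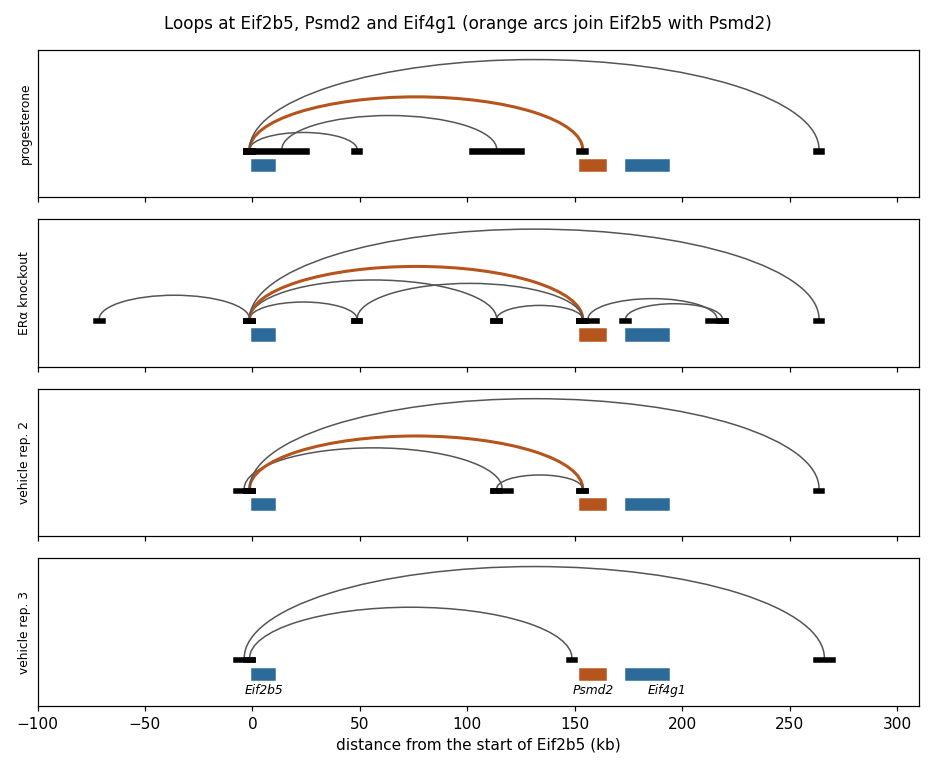
Loops at Eif2b5, Psmd2 and Eif4g1 (arcs between anchor midpoints; black blocks are anchors, coloured blocks genes) by distance from the start of Eif2b5 (x axis, kb), a panel per library; arc height has no unit, and a 6350 kb knockout loop is outside the window. The orange arc from Eif2b5 to Psmd2 is in the progesterone, knockout and vehicle replicate 2 panels, and vehicle replicate 3 has a grey arc that ends just before Psmd2.

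The second cross-family loop was on chromosome 5. In 25 kb bins, chr5:139825001-139850000 with an end of Psmg3 was joined to chr5:140400001-140425000 with the start of Eif3b, a core eIF3 subunit, 575 kb away. It was listed after progesterone and in vehicle replicate 2, and not in the knockout or vehicle replicate 3. Eif3b had 1 loop after progesterone, 3 in the knockout, 4 in vehicle replicate 2 and none in vehicle replicate 3. The loop of 225 kb between the bins of Psmc3ip and Psme3 on chromosome 11 was in vehicle replicate 2 only, and its Psmc3ip bin held ends of 5 other protein-coding genes.

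The promoters at the ends of the 2 cross-family loops are shown because their start sites lay inside the joined anchors. They are the RefSeq windows on GRCm38.p6 from 250 bases before to 50 after the start, 5′ to 3′ on the gene's strand. Capitals mark matches, on either strand, to the motifs searched. Those of Psmd2 and Eif3b, which were not at an anchor in all 4 lists, were picked once their loops were known. The windows are chr16:20498567-20498866 (plus strand) for Eif2b5, chr16:20651402-20651701 (plus) for Psmd2, chr5:139826845-139827144 (minus) for Psmg3 and chr5:140419055-140419354 (plus) for Eif3b.
Eif2b5: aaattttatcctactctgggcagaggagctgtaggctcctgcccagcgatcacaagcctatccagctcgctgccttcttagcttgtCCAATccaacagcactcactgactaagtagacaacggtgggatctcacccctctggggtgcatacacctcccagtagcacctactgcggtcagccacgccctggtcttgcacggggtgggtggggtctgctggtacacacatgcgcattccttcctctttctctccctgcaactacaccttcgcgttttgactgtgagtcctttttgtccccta
Psmd2: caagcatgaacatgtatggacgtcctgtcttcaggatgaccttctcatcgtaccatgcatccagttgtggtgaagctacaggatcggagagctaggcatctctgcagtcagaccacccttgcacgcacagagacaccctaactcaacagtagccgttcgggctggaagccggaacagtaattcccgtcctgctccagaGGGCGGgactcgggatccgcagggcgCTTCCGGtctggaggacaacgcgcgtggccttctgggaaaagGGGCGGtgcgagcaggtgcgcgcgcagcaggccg
Psmg3: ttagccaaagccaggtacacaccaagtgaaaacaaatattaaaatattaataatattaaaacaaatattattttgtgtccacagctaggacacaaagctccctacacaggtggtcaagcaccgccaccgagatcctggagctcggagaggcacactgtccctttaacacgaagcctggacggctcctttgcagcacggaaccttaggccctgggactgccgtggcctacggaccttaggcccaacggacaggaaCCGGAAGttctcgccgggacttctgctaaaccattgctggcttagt
Eif3b: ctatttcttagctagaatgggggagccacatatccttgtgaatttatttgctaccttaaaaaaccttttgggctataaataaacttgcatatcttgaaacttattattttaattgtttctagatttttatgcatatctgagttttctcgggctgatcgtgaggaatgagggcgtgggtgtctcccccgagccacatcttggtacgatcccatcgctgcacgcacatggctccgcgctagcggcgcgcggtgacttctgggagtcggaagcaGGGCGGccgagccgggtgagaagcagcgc

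The window of Eif2b5 held a CCAAT box, that of Psmd2 an ETS motif and 2 SP1 motifs, that of Psmg3 an ETS motif and that of Eif3b an SP1 motif. Over the 43 Psm and 43 Eif genes with a window, the ETS motif CCGGAAG was in 34.9% of Psm and 32.6% of Eif windows, against 12.1% of 17274 promoter windows. The SP1 motif GGGCGG was in 55.8% of Psm and 72.1% of Eif windows, against 46.9%. The YY1 motif AAGATGG was in 18.6% and 9.3% of Psm and Eif windows, against 6.4%. CCAAT was in 37.2% and 32.6%, against 39.6%. The antioxidant element TGACNNNGC, bound by NRF-family activators of proteasome genes, was in 14.0% of each family, against 13.1%. The NRF1 palindrome (of nuclear respiratory factor 1) was in 16.3% and 11.6%, against 6.74%. The full palindrome of the estrogen response element was in no member window (0% of each family) and in 0.0579% of all windows. The CTCF consensus was in 1 of 43 Psm windows (2.33%), that of Psmc4, and in 0% of Eif windows, against 0.318%. All motifs were searched on both strands, SP1 and ETS matches can lie side by side, and a match is not a bound site. The windows were not matched for base content. Median GC content was 57.3% for Psm and 61.3% for Eif windows, against 56.3%. The median ratio of observed to expected CpG was 0.763 and 0.854, against 0.586. The part of this in the motif shares was not tested.

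Of the 43 Psm genes with a listed start site, that site lay in an anchor in 15 after progesterone, 27 in the knockout, 21 in vehicle replicate 2 and 9 in vehicle replicate 3. Of the 43 Eif genes it did in 12 after progesterone, 28 in the knockout, 14 in vehicle replicate 2 and 8 in vehicle replicate 3. Over all genes with a listed site the shares were 21.9% after progesterone, 38.5% in the knockout, 28% in vehicle replicate 2 and 17.6% in vehicle replicate 3. The anchors at members mostly held the start site and not only the far end of the gene. Among contacts of genes with a listed start site, the share with that site in the anchor was 84.6% (65.1% to 95.6%) for Psm genes after progesterone and 94.0% (85.4% to 98.4%) in the knockout. It was 82.9% (66.4% to 93.4%) in vehicle replicate 2 and 64.3% (35.1% to 87.2%) in vehicle replicate 3. For Eif genes it was 73.9% (51.6% to 89.8%) after progesterone, 92.1% (82.4% to 97.4%) in the knockout, 76.7% (57.7% to 90.1%) in vehicle replicate 2 and 92.3% (64.0% to 99.8%) in vehicle replicate 3. For all genes it was 69.6% after progesterone, 78.4% in the knockout, 72.3% in vehicle replicate 2 and 65.7% in vehicle replicate 3. Only in the knockout list did the intervals of both families lie above the value for all genes. Both ends of a short gene can lie in the same bin, and the part of gene length in these shares was not tested. The median length was 11.6 kb for Psm genes, 17.8 kb for Eif genes and 17.3 kb for all genes.

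The loops of both vehicle lists that were missing after progesterone touched 4 members (3.77%), close to the 4.25% of all genes. Psmd9, a chaperone of the regulatory particle, had no loop after progesterone and 1 in each vehicle list, the one in vehicle replicate 2 being 190 kb long. Eif3k had no loop after progesterone and 1 in each vehicle list, of 70 and 60 kb. Psmg3 lacked a 50 kb loop to Ints1, and Psmd8 a 55 kb loop to Yif1b, although both genes had other loops after progesterone. Psmd9 and Eif3k are thus the members that both vehicle lists placed at an anchor while the progesterone list did not, 1.89% of members against 3.51% of all genes. These 4 loops were 22.2% of 18 member loops in both vehicle lists, and 15.1% of all such loops, those at no gene included, were missing after progesterone.

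In the other direction, 15 of 56 progesterone loops at members were in neither vehicle list (26.8%, against 14.8% of all progesterone loops). All progesterone loops include those at no gene. Of the 15, 8 were also in the knockout list and 7 in no other. Counted per contact, 12.1% of member loops after progesterone were in no other list. Other genes of like density and bin size gave 10.9%. The 15 loops were at 12 members (11.3%), against 6.70% of all genes. At any progesterone anchor were 43 of 106 members (40.6%), against 27.8% of all genes, a difference that these shares carry too. Psmc2, an ATPase of the regulatory particle, had 3 of the 15 loops, of 830, 750 and 20050 kb, and Eif2a had 2, of 360 and 700 kb. The others were at Psma2, Psmc5, Psmf1, Psmg2, Psmg4, Eif2b5, Eif3a, Eif3j1, Eif4a2 and Eif5, with 1 each. Psmd3, Psmd6, Psmg2, Eif3a, Eif3j1, Eif4a2, Eif4e2 and Eif5 were at an anchor after progesterone and in neither vehicle list, 7.55% of members against 3.74% of all genes. Loops of Psmd3, Psmd6 and Eif4e2 were nevertheless matched in a vehicle list, with the gene's ends outside the anchor there. Between the vehicle libraries the share of members was higher than 7.55% in 1 direction and lower in the other. There 1 list is set against 1 other list and not against 2, which is an easier criterion. At an anchor in vehicle replicate 2 and not in replicate 3 were 13 Psm and 14 Eif genes, 25.5% of members against 15.9% of all genes, and the reverse held for 3 Psm and 2 Eif genes, 4.72% against 5.47%. With vehicle replicate 2 left out, progesterone loops absent from vehicle replicate 3 were at 27 members in place of 12.

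The knockout lacked 3 of the 18 member loops found in both vehicle lists (16.7%, against 10.0% of all such loops, those at no gene included). These were at 3 members (2.83%), close to the 2.52% of all genes. Psmd9 had no loop in the knockout. Its loop counted as missing by the 10 kb bins of vehicle replicate 2, while the 175 kb loop of vehicle replicate 3, in 25 kb bins, had a match in the knockout. Psmd9 and Eif4b were the members that each vehicle list placed at an anchor while the knockout list did not, 1.89% of members against 1.8% of all genes. The gene Eif4b, which encodes a cofactor of the Eif4a helicase, had no loop in the knockout and 1 and 3 in vehicle replicates 2 and 3, the shared one being a 725 kb loop to Krt80. The 550 kb loop of Eif4b in vehicle replicate 3 was nevertheless matched in the knockout. There the nearest anchor lay 2.83 kb from an end of the gene. Eif4ebp1 lacked the 50 kb loop as vehicle replicate 2 placed it and had 2 others, while the 60 kb loop of vehicle replicate 3 was matched in all 4 lists. Both comparisons use the same vehicle libraries, so the repeated call of Psmd9 is not independent.

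Knockout loops in neither vehicle list were at 47 members (44.3%), 23 Psm and 24 Eif genes, against 29.0% of all genes. They were 93 of the 150 knockout loops at members, 62%, and of all knockout loops, those at no gene included, 40.6% were in neither vehicle list. Counted per contact, 56.3% of member loops in the knockout were in no other list. Other genes of like density and bin size gave 46.8%, a difference that was not tested. The knockout list was the longest, and members were more often at any knockout anchor, 70 of 106 (66.0%) against 43.6% of all genes. The shares of 44.3% and 29.0% are over all members and all genes, so they carry that difference too. Psmc2 and Eif5b, the factor that joins the ribosomal subunits, had 5 such loops each, and Psma1, Psma2, Psmb7 and Eif2b4 had 4 each. With 3 each came Eif2b5, Eif2s1, Eif3j1, Psmc3, Psmd5, Psme3ip1, Eif4a2 and Psmd6, a tie of which the naming rule, limited to 10 members, takes the first 4 by bin size and symbol. Psmc2 had 3 loops after progesterone, 6 in the knockout, 1 in vehicle replicate 2 and none in vehicle replicate 3. Eif5b had none after progesterone, 7 in the knockout, 2 in vehicle replicate 2 and none in vehicle replicate 3. Eif2b4, the delta subunit gene of eIF2B, had 4 in the knockout and none elsewhere.

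At an anchor in the knockout and in neither vehicle list were 10 Psm and 15 Eif genes, 23.6% of members against 12.1% of all genes. The 10 Psm genes were Psmb1, Psmb6, Psmb10, Psmc6, Psmd1, Psmd12, Psmd6, Psme3ip1, Psme4 and Psmg2. Loops of 3 of the 25 genes, Psmb10, Eif2d and Eif3a, were matched in a vehicle list. Among the Eif genes were the genes of the beta and gamma subunits of eIF2, Eif2s2 and Eif2s3x, and the stress kinase genes Eif2ak2 and Eif2ak3. The vehicle libraries differed from each other as well. Of 51 member loops shared by the knockout and vehicle replicate 2, 36 were not called in vehicle replicate 3 (70.6%), against 40.4% of 12175 such loops anywhere. Of 27 shared by the knockout and vehicle replicate 3, 4 were not called in vehicle replicate 2 (14.8%), against 7.95% of 7979. The wider counts of 12175 and 7979 include loops at no gene. The part of list length in the knockout counts was not tested, since no contact counts were used here.

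Other genes of the 2 pathways were listed by hand, with earlier results of these data known. They had higher counts at anchors than genes of like density in every list, which was not tested. With 10 kb anchors alone this did not hold for translation genes in vehicle replicate 2, with 3 against 3.29. Of 19 genes that serve the proteasome, 10 were at an anchor after progesterone, 18 in the knockout, 13 in vehicle replicate 2 and 7 in vehicle replicate 3. Genes of like density would give 5.40 after progesterone, 8.32 in the knockout, 6.65 in vehicle replicate 2 and 4.66 in vehicle replicate 3. In all 4 lists were Uchl5, a deubiquitinase of the regulatory particle, the ubiquitin fusion gene Rps27a, Nfe2l2, an activator of antioxidant and proteasome genes, and Zfand5. Nfe2l1, the main activator of proteasome genes when the protease is blocked, had 1 loop after progesterone, 2 in the knockout, 1 in vehicle replicate 2 and none in vehicle replicate 3. Of 27 other translation genes, 13 were at an anchor after progesterone, 20 in the knockout, 15 in vehicle replicate 2 and 11 in vehicle replicate 3. Genes of like density would give 7.34 after progesterone, 11.8 in the knockout, 9.13 in vehicle replicate 2 and 6.31 in vehicle replicate 3. In all 4 lists were Pabpc1, Denr, Abce1, Pdcd4, Dhx29, Ddx3x, Eef1a1, Gspt1 and Atf4. Atf4, the transcription factor translated when eIF2 is phosphorylated, had 1 loop after progesterone, 5 in the knockout and 1 in each vehicle list.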

How the data were processed

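The deposited files are loop lists, 1 per library, that hold chromosome, start and end of both anchors without a header. These values are positions on the genome (unit other), as deposited by the authors. Per the submitters' processing notes, the build was mm10 and Juicer 1.5.6 was used. How loops were called, and with which thresholds, is not given in the sources used. Starts count from 0 in the files and from 1 here. No contact counts were used, so depth is unknown.

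Gene positions were those of RefSeq on GRCm38.p6 (21631 protein-coding genes on chromosomes with loops) and start sites from a RefSeq promoter table that matched 86 of 106 members and 17274 genes. The members and lists were chosen with earlier results of these data known. A loop counted as shared when both anchors overlapped once the anchors of 1 list had been widened by 10 kb on each side. Loops that differ were those that both vehicle lists held and the compared list lacked, or those that the compared list held and neither vehicle list did. In place of random genes, the share of other genes was averaged over the members' 5 density classes, and no test was made. Named were members in all 4 lists, up to 10 members per direction of each comparison, members at no anchor, and up to 3 partners each; other genes named were chosen after their values were seen. Scripts were tested on simulated data and used Python 3.11.15, numpy 2.4.6, pandas 2.3.3, scipy 1.17.1 and matplotlib 3.10.9.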

Additional observations from a re-analysis of the deposited data

How the results depend on the processing

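Members were chosen by name and the pathway genes were listed by hand, both with earlier results of these data known. No paired analysis was made. The vehicle and progesterone libraries share only replicate number 2, and the knockout library is numbered 1, which no other library here carries. The labels do not say whether a shared number marks a pair. No contact counts, depth or loop strength bound these results, and with positions alone a missing loop cannot be told from one below the caller's threshold.

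With 10 kb anchors alone, Psm genes at anchors numbered 8 after progesterone, 14 in the knockout, 5 in vehicle replicate 2 and 5 in vehicle replicate 3, and Eif genes 5, 9, 8 and 7; the density-standardised counts were 5.004, 7.74, 6.04 and 4.62 for Psm and 5.51, 8.501, 6.68 and 5.05 for Eif genes. No member (0 Psm and 0 Eif) was then in all 4 lists. Proteasome pathway genes numbered 4, 8 and 6 after progesterone, in the knockout and in vehicle replicate 2, with 1 in all 4 lists, and translation genes 5, 7, 3 and 6 over the 4 lists, with 1 in all 4; in vehicle replicate 2 genes of like density would give 3.29. Median lengths were 270 kb (Psm, knockout), 250 kb, 280 kb and 60 kb (Eif after progesterone, in the knockout and in vehicle replicate 3). Members at loops that differ numbered 1 (vehicle loops missing after progesterone), 1 (missing in the knockout) and 20 (knockout loops in neither vehicle list).

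With 5 and 10 kb anchors, vehicle replicate 3 had 9 Psm genes, progesterone 13 Eif genes and 8 translation genes, and 5 Psm genes were in all 4 lists. With start sites alone, vehicle replicate 3 had 9 Psm genes, progesterone 12 and vehicle replicate 2 14 Eif genes, and 6 Psm and 4 Eif genes were in all 4 lists. With gene ends within 10 kb, vehicle replicate 3 had 24 Psm genes, and 20 Psm, 15 Eif and 7 proteasome pathway genes were in all 4 lists; loops at members became 58, 121, 77 and 43 for Psm and 44, 113, 68 and 31 for Eif genes, in the order progesterone, knockout, vehicle replicates 2 and 3; and 7 members had vehicle loops missing after progesterone. Partner shares under that rule were 85% (knockout), 89.2% (vehicle replicate 2) and 94.1% (vehicle replicate 3) for Psm and 85.7% (progesterone), 88.7% (knockout) and 76.5% (vehicle replicate 3) for Eif genes. Counting any gene overlap they were 90%, 91.2% and 94.6% for Psm (progesterone, knockout, vehicle replicate 2) and 85.7%, 89.2% and 70.6% for Eif genes (progesterone, vehicle replicates 2 and 3). The Psm median over gene medians after progesterone was 152.5 kb. With 25 kb added to anchors, 1 member had vehicle loops missing in the knockout.

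Without 1 vehicle replicate, members with vehicle loops missing numbered 10 to 32 for progesterone and 5 to 19 for the knockout, the higher value without replicate 3; members with progesterone loops in no vehicle list numbered 14 to 27, the higher without replicate 2, and with knockout loops 50 to 62. Psm genes in every list were 12 to 17, Eif genes 9 to 12, proteasome pathway genes 5 to 9 and translation genes 10 to 11; the vehicle count was 14 to 24 for Psm, 12 to 24 for Eif, 7 to 13 for proteasome pathway and 11 to 15 for translation genes. Leaving out the 13 members that are not subunits or factors, an alternative chosen after seeing the data, and using 10 density classes, a 250 kb window or 0 kb added moved no count by over 1.5 times. The cause was not tested for any of these shifts.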
